A study of Mus musculus with 39 samples.

Results

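Of 39 single cells sorted from adult mouse liver, 7 carried a mesothelial-like set of genes, and 3 of those 7 held the transcript of Mki67, which encodes the cycling-cell antigen Ki-67, at 100 CPM or more, CPM being reads scaled to the size of the library. These 3 cells, numbered 6, 8 and 10, (the Mki67-high cells) were set beside the other 4, numbered 5, 7, 35 and 37 (the Mki67-low cells), across all genes except Mki67. The cells came from Krt19CreERT/Rosa26CAG-EGFP mice, in which a tamoxifen-dependent Cre recombinase under the keratin gene Krt19 turns on a green reporter, so a green cell either had Krt19-driven Cre or descends from one that had. Every cell was GFP-positive by flow sorting, and the labels gave neither treatment, age nor animal. Both the 7 cells and the split were chosen by measured values, the first by cell type genes and the second by Mki67, so neither the shared identity nor the Mki67 difference is a finding. The labels named no animal, so each side counts as 1 sample, no test was possible, and all values below describe these 7 cells.

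Mesothelium is the single layer of flattened cells that covers the liver and lines the body cavity. In the adult it divides rarely, and it shares keratins with epithelium and collagen genes with fibroblasts. A dividing cell first copies its DNA in S phase, with licensing factors, DNA polymerases and enzymes that make nucleotides, and then separates the copies in mitosis, with kinases, kinetochore proteins and a spindle of tubulin. Ki-67 coats mitotic chromosomes and is lost from resting cells.

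Mki67 stood at 1768 CPM in cell 6, 989 CPM in cell 8 and 486 CPM in cell 10. In the other cells it stood at 0.323 CPM in cell 5, 0.525 in cell 7, 1.79 in cell 35 and 0.320 in cell 37. The threshold thus fell in a wide gap, with cell 10 the lowest above it and cell 35 the highest below it among the 7. Top2a, the topoisomerase that untangles replicated DNA, gave the same split at 1148, 1103 and 243 CPM in cells 6, 8 and 10, with no more than 0.525 CPM in any of the other 4.

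The promoters of 4 division genes are shown because their genes were high in different Mki67-high cells: Top2a in all 3, Cdk1 in cells 6 and 10, Rrm1 in cells 8 and 10, and Cdc6 in cell 8. Each line holds the 250 bases before the start of transcription, from RefSeq on build GRCm38.p6, written 5′ to 3′ on the strand of the gene. Capitals mark the letters TTTGAA of a cell cycle homology region (CHR), the letters of a CCAAT box, as spelled in its name, or the letters TTCCCGC of an E2F site on either strand, so a match on the opposite strand appears as its reverse complement. In mammalian cells CHR and CCAAT letters are known from promoters of mitotic genes and E2F letters from promoters of genes used at the start of S phase.
Top2a: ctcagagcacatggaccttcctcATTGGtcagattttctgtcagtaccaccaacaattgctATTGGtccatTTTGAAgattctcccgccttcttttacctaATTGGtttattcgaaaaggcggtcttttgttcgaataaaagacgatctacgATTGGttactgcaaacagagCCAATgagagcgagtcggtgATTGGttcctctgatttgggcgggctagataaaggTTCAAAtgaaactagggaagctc
Cdk1: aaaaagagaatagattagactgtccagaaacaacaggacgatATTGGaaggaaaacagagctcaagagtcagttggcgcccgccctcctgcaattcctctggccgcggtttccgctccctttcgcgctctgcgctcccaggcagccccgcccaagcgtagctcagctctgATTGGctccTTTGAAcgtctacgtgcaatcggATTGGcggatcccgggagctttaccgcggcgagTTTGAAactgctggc
Rrm1: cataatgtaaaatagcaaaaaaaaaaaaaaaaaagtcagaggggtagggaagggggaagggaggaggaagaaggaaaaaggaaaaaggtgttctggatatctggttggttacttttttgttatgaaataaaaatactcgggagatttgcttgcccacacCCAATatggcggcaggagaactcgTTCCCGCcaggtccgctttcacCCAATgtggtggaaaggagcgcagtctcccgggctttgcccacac
Cdc6: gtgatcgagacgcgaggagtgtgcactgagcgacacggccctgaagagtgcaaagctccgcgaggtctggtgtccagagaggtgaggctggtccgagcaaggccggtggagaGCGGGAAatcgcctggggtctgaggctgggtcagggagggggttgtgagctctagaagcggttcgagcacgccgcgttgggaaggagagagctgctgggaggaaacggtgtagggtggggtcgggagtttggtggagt

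These windows lie at chr11:99024190-99024439 on the minus strand for Top2a, at chr10:69352913-69353162 on the minus strand for Cdk1, at chr7:102441445-102441694 on the plus strand for Rrm1 and at chr11:98907901-98908150 on the plus strand for Cdc6. The Top2a window held 2 CHR and 6 CCAAT matches, and the Cdk1 window held 2 CHR and 3 CCAAT matches. The Rrm1 window held 1 E2F and 2 CCAAT matches, while the Cdc6 window held 1 E2F match alone. Matches of different motifs were counted separately even where they overlapped. Windows of other division genes were also examined. Those of the S phase genes Mcm2, Mcm6, Mcm10, Pcna, Pold1 and Lig1 held no E2F match. The Mcm2 window held 1 CHR match. CHR matches were absent for the mitotic genes Plk1, Aurka, Cenpf, Cenpa, Cdca3, Cdca8, Hmmr, Anln and Mad2l1. They were present for Kif22, Ckap2l, Ube2c and 1 window of Prc1. The windows shown are thus examples, and shares over whole lists are given further on.

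The Mki67-high cells held more genes in total. At 1 CPM or more there were 4268, 3397 and 4200 genes in cells 6, 8 and 10, beside 2956 in cell 5, 3089 in cell 7, 2598 in cell 35 and 3079 in cell 37. The means were 3955 and 2930.5, a difference of 1024.5 genes, and the groups did not overlap. At 100 CPM or more there were 1445, 1415 and 1454 genes beside 1166, 1203, 741 and 1213, again without overlap. The libraries of the Mki67-high cells were also finer grained. By the spacing of low values, 1 CPM stood for an estimated 41.5, 20.3 and 22.1 reads in cells 6, 8 and 10, and for 15.5, 17.1, 6.71 and 12.5 reads in cells 5, 7, 35 and 37. The part of depth in the number of genes was not tested, and how far fewer molecules per cell and fewer reads set it cannot be told apart here. Neither the summed CPM, from 883829 to 1358544 in the Mki67-high cells and from 890909 to 1490930 in the others, nor the share of the ribosomal RNA gene Rn45s, from 14.0% to 21.4% and from 12.0% to 17.8%, separated the groups.

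**Figure D1:**
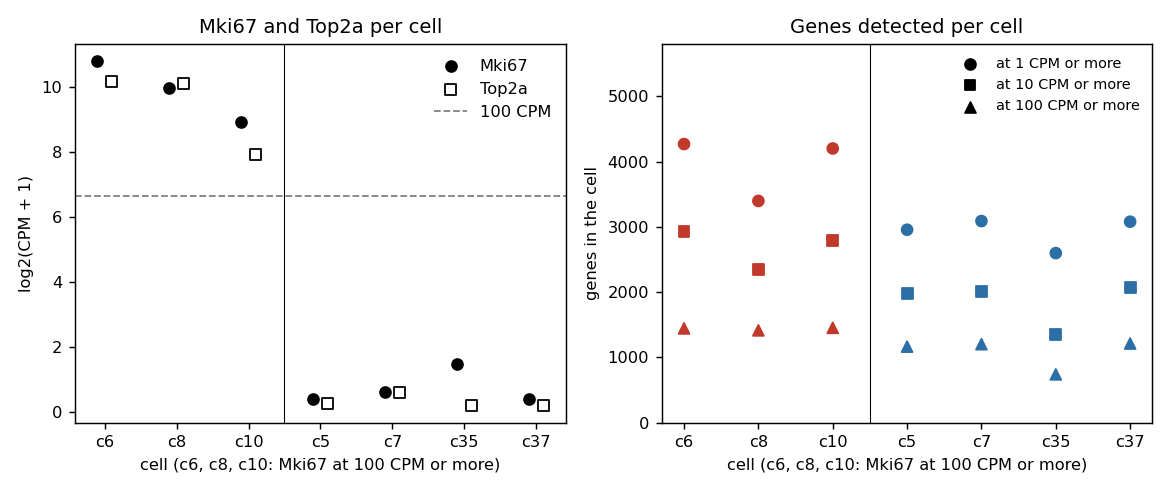
Left, Mki67 (filled circles) and Top2a (open squares) as log2(CPM + 1) in each of the 7 cells, with a dashed line at 100 CPM. Right, the number of genes at 1, 10 and 100 CPM or more in the same cells, red for the 3 Mki67-high cells and blue for the other 4. All 3 red cells lie above all 4 blue cells at each level, from 1415 to 1454 genes beside 741 to 1213 at 100 CPM.

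Genes were compared where they reached 1 CPM in at least 3 of the 7 cells, which left 3935 of 10061 symbols. A gene was called higher where every Mki67-high cell lay above every other cell and the mean of log2(CPM + 1) differed by at least 2, and called lower in the reverse case. A gene seen in the 3 Mki67-high cells alone passes that filter through the group in which it is high. By this rule 259 genes, or 6.58% of those compared, were higher in the Mki67-high cells and 46, or 1.17%, were lower. The median difference over all compared genes was 0.73 on the log2 scale and 62.2% of them were above 0, so single genes are read against that shift. Where 100 CPM was also asked of every cell in the higher group, 54 genes (1.37%) were higher and 5 (0.127%) were lower. The balance depended on scaling: 84.9% of calls were higher as deposited, but 42.8% after quantile normalisation, with 164 genes higher, 219 lower and a median of -0.14. When 1 Mki67-high cell was left out, 281 to 320 genes were higher, and 134 or 135 of the 259 were among them. The filter still asked for 3 cells there. The 122 of the 259 genes that were under 1 CPM in all 4 other cells therefore could not be compared.

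Of 200 genes listed for DNA replication, mitosis and chromosome structure, 120 were in the table. At 100 CPM or more, 44, 38 and 48 of the 120 were seen in cells 6, 8 and 10, beside 8 in cell 5, 6 in cell 7, 5 in cell 35 and 10 in cell 37. No Mki67-low cell thus held as many as any Mki67-high cell. At that level 62 division genes were seen in at least 1 Mki67-high cell and in none of the 4 others, and 4 the other way round. Over genes of all kinds the same counts were 1432 and 1409. Of the 120, 60 passed the filter and could be compared; 18 of these, or 30%, were higher beside 6.58% of all genes compared, none was lower, and the median difference was 3.53. Because a gene can pass the filter through the high cells alone, the count was also taken over all 120 with no filter, where 23 (19.2%) were higher beside 3.47% of all symbols, with a median of 2.97. The other 60 division genes were seen at 1 CPM in fewer than 3 of the 7 cells and were not compared, and 35 of the 120 reached 100 CPM in none of the 7. After quantile normalisation 14 division genes were higher, with a median of 3.21. The number called was 9 of 34 compared (26.5%) without cell 6, 11 of 32 (34.4%) without cell 8 and 6 of 34 (17.6%) without cell 10. The filter still asked for 3 cells there, so a gene at 1 CPM in the Mki67-high cells alone could no longer be compared. These lower counts thus do not show how far the calls rest on each cell. With all 7 cells the number called was 4 where 100 CPM was asked of all 3 cells, and 1 of 7 compared where each cell kept its 741 highest genes.

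**Figure D2:**
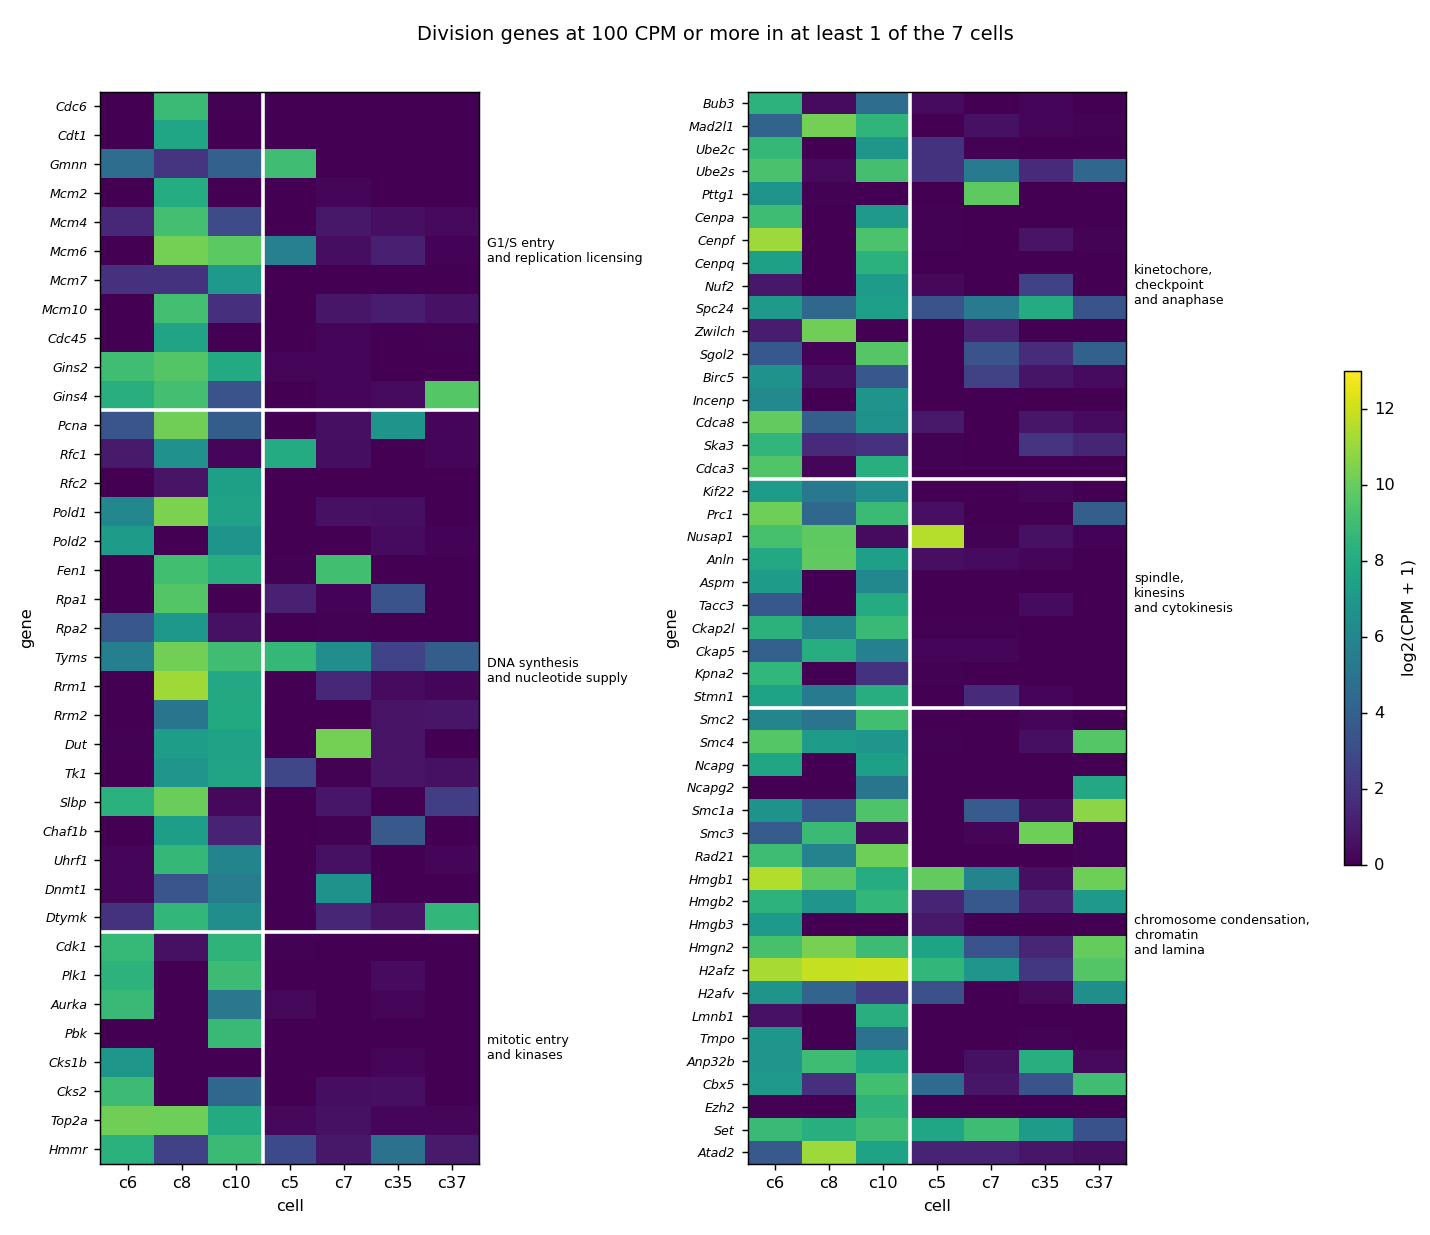
Heat map of log2(CPM + 1) for division genes that reached 100 CPM in at least 1 of the 7 cells, in rows by role, with cells in columns and a white line between the 3 Mki67-high cells and the other 4. The DNA replication blocks are brightest in cell 8, the mitotic blocks in cells 6 and 10, and all blocks are mostly dark in cells 5, 7, 35 and 37, with 5 to 10 of 120 genes at 100 CPM.

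Genes of S phase were highest in cell 8. Of 43 measured genes for licensing, DNA synthesis and nucleotide supply, 23 (53.5%) reached 100 CPM in cell 8, 12 (27.9%) in cell 10 and 4 (9.30%) in cell 6, beside 1 to 3 in each of the other 4 cells. The order of the cells was thus not that of Mki67, which was highest in cell 6. Of these genes, 13 reached 100 CPM in cell 8 and in neither of the other Mki67-high cells, and 3 in cell 10 alone. None did so in cell 6 alone.

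Among the licensing factors, which load and start the replication machinery, Cdc6 stood at 467 CPM in cell 8 and Cdt1 at 203 CPM, and neither passed 0.0497 CPM in any other of the 7. Mcm2, Mcm4 and Mcm6 are subunits of the replicative helicase. Mcm2 was 264 CPM in cell 8 and listed at 0 in cells 6 and 10. Mcm4 was 550 CPM in cell 8, 1.73 CPM in cell 6 and 6.89 CPM in cell 10, and under 1 CPM in the other 4. Mcm6 was 1239 CPM in cell 8 and 847 CPM in cell 10, but 0.0241 CPM in cell 6, below the 49.5 CPM of cell 5. Gins2, part of the same helicase complex, was the licensing gene at 100 CPM in all 3, with 509, 733 and 244 CPM in cells 6, 8 and 10, with at most 0.129 CPM in the other 4. Not every member followed: Gins4 reached 771 CPM in cell 37, above cells 6, 8 and 10 at 285, 550 and 9.15 CPM, and Gmnn, the inhibitor of licensing, was highest in cell 5 at 523 CPM.

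Enzymes of DNA synthesis and nucleotide supply repeated the order. Rrm1, the large subunit of ribonucleotide reductase, was 2235 CPM in cell 8 and 228 CPM in cell 10, listed at 0 in cell 6, and at most 1.75 CPM in the other 4. Pcna, the sliding clamp of DNA polymerase, was 1175 CPM in cell 8 and 9.78 and 13.5 CPM in cells 6 and 10, below the 103 CPM of cell 35. Cell 8 was therefore the one cell with high levels of both. Pold1, the catalytic subunit of DNA polymerase delta, separated the groups at 67.0, 1378 and 178 CPM in cells 6, 8 and 10 and at most 0.525 CPM in the others. Lig1, which joins the fragments of the lagging strand, did so at 65.0, 98.7 and 23.1 CPM, beside at most 0.117 CPM. Tyms, which makes thymidylate, overlapped between the groups, with 47.7 CPM in cell 6 beside 401 CPM in cell 5. Dut, which removes dUTP, was highest in cell 7 at 1255 CPM.

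Genes of mitosis showed the opposite order. Of 52 measured genes for mitotic entry, the kinetochore and the spindle, 27 (51.9%) reached 100 CPM in cell 6, 21 (40.4%) in cell 10 and 6 (11.5%) in cell 8, beside 1 in each of cells 5, 7 and 35 and none in cell 37. In cell 8, 36 of the 52 were under 1 CPM, beside 4 in cell 6 and 9 in cell 10. Of the 52, 29 reached 100 CPM in cell 6 or 10 and not in cell 8, and 2 in cell 8 alone. Cell 8 also had the fewest genes of all kinds at 1 CPM among the 3, 3397 beside 4268 in cell 6 and 4200 in cell 10, while at 100 CPM the 3 cells were close, at 1415, 1445 and 1454. The part of detection in the low mitotic genes of cell 8 was not tested.

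Among the kinases and their partners, Cdk1, the kinase that drives entry into mitosis, stood at 425 and 356 CPM in cells 6 and 10 and at 0.493 CPM in cell 8. Plk1, a kinase of centrosomes and kinetochores, was 337 and 485 CPM in cells 6 and 10 and listed at 0 in cell 8. Aurka, the centrosome kinase Aurora A, was 443 CPM in cell 6, 35.3 CPM in cell 10 and listed at 0 in cell 8. These 3 kinases were thus near 0 in cell 8, as in the Mki67-low cells, where none passed 0.298 CPM. Pbk was 425 CPM in cell 10 and listed at 0 in the other 6, and Cks2, a small subunit of Cdk complexes, was 484 CPM in cell 6 and 20.2 CPM in cell 10.

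Kinetochore and checkpoint genes gave the same order, with 2 members highest in cell 8. Cenpf, a large protein of the outer kinetochore, was 2210 CPM in cell 6 and 627 CPM in cell 10 and listed at 0 in cell 8. Cenpa, the histone of the centromere, was 493 and 130 CPM in cells 6 and 10 and listed at 0 in cell 8. Ube2c, which supplies ubiquitin to the anaphase-promoting complex, was 400 and 115 CPM in cells 6 and 10, listed at 0 in cell 8 and 2.80 CPM in cell 5. Zwilch, a subunit of the kinetochore RZZ complex, was 1161 CPM in cell 8 and at most 1.32 CPM in the other 6. Mad2l1, the spindle checkpoint protein Mad2, was also highest in cell 8, at 17.5, 1244 and 363 CPM in cells 6, 8 and 10 and at most 0.525 CPM in the others. Cdca8, a subunit of the chromosomal passenger complex, also separated the groups, at 933, 14.3 and 97.03 CPM beside at most 0.827 CPM. Pttg1, the inhibitor of separase, was highest outside the Mki67-high cells, at 871 CPM in cell 7 and 104 CPM in cell 6.

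The spindle and cytokinesis genes held 6 of the 18 calls, out of 10 compared (60%, beside 6.58% of all genes compared). Their median difference was 6.04, and it was 3.48 with no filter and 3.03 with a pseudocount of 10. Prc1, which bundles the microtubules of the midzone, was 1125, 19.5 and 469 CPM in cells 6, 8 and 10, and the highest other cell was cell 37 at 14.1 CPM. Anln, the actin-binding protein anillin of the contractile ring, was 228, 915 and 163 CPM beside at most 0.437 CPM. Anln was the spindle-list gene at 100 CPM in all 3, while Prc1 ran low in cell 8. Ckap2l, a protein of the mitotic spindle, was 327, 59.5 and 427 CPM beside at most 0.0647 CPM. The remaining called members were Kif22, a chromosome-bound kinesin, Ckap5, a microtubule polymerase, and Stmn1, which destabilises microtubules. Nusap1, a spindle protein, went against the split, with 2964 CPM in cell 5 beside 598, 868 and 0.324 CPM in cells 6, 8 and 10.

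**Figure D3:**
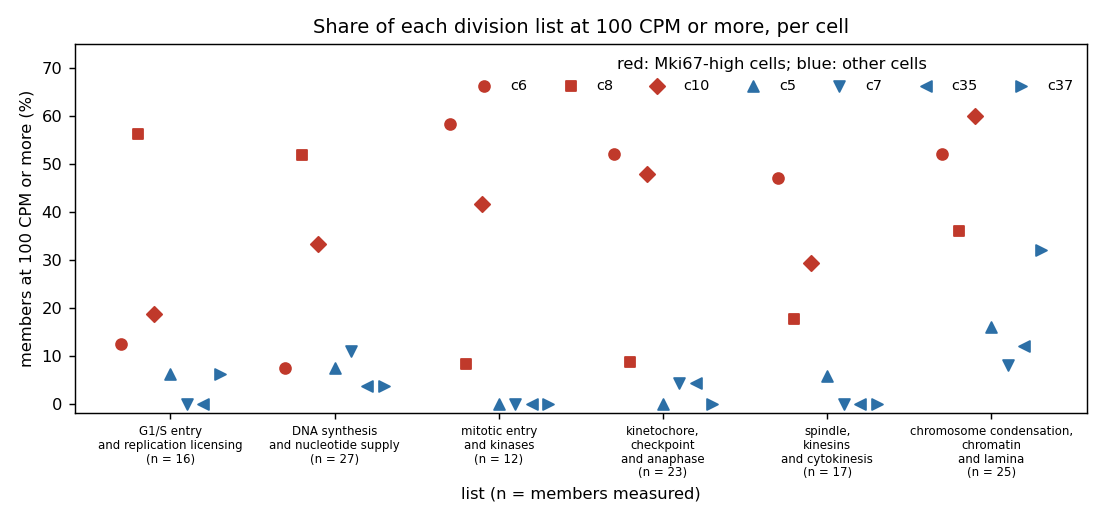
Share of the measured members of each division list at 100 CPM or more, as a percentage of the list, with 1 point per cell, red for the 3 Mki67-high cells and blue for the other 4. On both DNA replication lists the highest point is cell 8, and on the 3 mitotic lists it is cell 6 with cell 8 the lowest red point.

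Genes of chromosome condensation and chromatin were spread over all 3 Mki67-high cells. Of 15 compared, 4 (26.7%, beside 6.58% of all genes compared) were higher and none was lower. The median difference was 3.92, beside 0.73 over all compared genes. It was 2.93 with no filter and 2.25 with cell 35 counted as Mki67-high. Rad21, the ring-closing subunit of cohesin, was 495, 56.2 and 1105 CPM in cells 6, 8 and 10 beside at most 0.0800 CPM. Smc2, the condensin ATPase, was 62.5, 31.1 and 533 CPM beside at most 0.149 CPM. Both separated the groups by a wide gap, as did Atad2, a chromatin ATPase, at 11.2, 2187 and 176 CPM beside at most 1.42 CPM. Rad21 and Smc2 were under 1 CPM in all 4 Mki67-low cells, so they passed the filter through the Mki67-high cells alone. H2afz, the histone variant H2A.Z, was present in both groups, at 2521, 3718 and 3971 CPM beside 394, 112, 3.28 and 735 CPM in cells 5, 7, 35 and 37. Near-identical copies of H2afz exist, so its reads may have been divided among them. Smc4, the partner of Smc2, reached 767 CPM in cell 37, close to the 773 CPM of cell 6. Histone genes listed by symbol prefix alone (Hist1h, Hist2h, Hist3h and Hist4h) were called in 1 of 8 compared. That gene, Hist1h2bc, was lower at 12.5, 1.63 and 8.46 CPM beside 475, 626, 77.5 and 556 CPM. The prefix does not show which of these transcripts depend on DNA replication.

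Promoter letters were counted over whole lists as a description. The CHR letters were in 38.1% of 42 promoters of the mitotic lists, in 60.0% of 20 promoters of the condensation list and in 16.2% of 37 promoters of the S phase lists, beside 13.3% of all genes in the expression table that had a promoter and 18.3% of all promoters in the reference table. The E2F letters were in 24.3% of the S phase promoters and 2.38% of the mitotic ones, beside 7.85% and 4.38%. CCAAT was in 64.9% of the S phase and 71.4% of the mitotic promoters, beside 39.9% and 37.5%. The genes called higher lay near the expression table as a whole, with CHR in 12.5%, CCAAT in 38.9% and E2F letters in 9.72% of 216 promoters. A match is a description of letters and shows no binding.

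Genes that move a cell from rest toward S phase differed from cell to cell. Ccnd3, the G1 cyclin D3, was the 1 called gene of 4 compared, at 152, 448 and 325 CPM in cells 6, 8 and 10 beside 0, 4.07, 0 and 50.7 CPM in cells 5, 7, 35 and 37. Ccnd1, cyclin D1, overlapped between the groups, since cell 10 at 4.17 CPM lay below cells 35 and 37. Cdk4, the kinase partner of D cyclins, was 1783 CPM in cell 8 but 1.18 CPM in cell 6, beside 431 CPM in cell 5.

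Of 18 measured genes tied to arrest or exit from the cycle, 10 were compared, none was called in either direction and the median difference was -0.11. Cdkn1a, the Cdk inhibitor p21, was 144 CPM in cell 10 and 228 CPM in cell 35, and at most 1.34 CPM in the other 5. Cdkn1b, the Cdk inhibitor p27, was 589 CPM in cell 35 and 31.2 CPM in cell 5, and at most 1.21 CPM in cell 7, cell 37 and all 3 Mki67-high cells. Gas1, a growth-arrest protein of the cell surface, was 156, 449 and 555 CPM in the Mki67-high cells beside 1117, 1927, 0.149 and 939 CPM. No arrest gene on this list was therefore high in all 4 Mki67-low cells and low in all 3 Mki67-high cells. The sign of this median turned with the handling of the data, from -1.14 with cells 5 to 8 and 10 alone to 1.01 without cell 6.

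The largest differences among the 54 genes at 100 CPM in all 3 Mki67-high cells included several genes of the division machinery. Tubb6, a beta-tubulin, led at 2116, 163 and 969 CPM in cells 6, 8 and 10 beside at most 0.323 CPM, a difference of 9.34 in mean log2(CPM + 1). Top2a followed with 9.08, and Gins2 and Anln came lower with 8.73 and 8.06. 2810417H13Rik, named Pclaf in RefSeq and known as a partner of Pcna, was 226, 1591 and 620 CPM beside at most 2.52 CPM. Tuba1b, an alpha-tubulin, was 4436, 1525 and 3091 CPM beside 32.2, 680, 0.298 and 0 CPM. Tubulin genes are close in sequence, so their reads may be divided unevenly.

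Other genes among the 15 with the largest differences were not on the division lists. Yif1b, a membrane protein of traffic between endoplasmic reticulum and Golgi, was 422, 1025 and 427 CPM beside at most 0.234 CPM. Smpd3, a neutral sphingomyelinase, was 199, 819 and 768 CPM beside at most 0.584 CPM. Elf1, an ETS-family transcription factor, was 383, 1892 and 237 CPM beside at most 1.14 CPM, and Prpf4b, a kinase of pre-mRNA splicing, was 360, 493 and 315 CPM beside at most 0.175 CPM. Banf1, which binds DNA at the nuclear envelope, and Atp5f1, a subunit of ATP synthase, had differences of 8.13 and 8.10. Soga1 completed the group at 8.65. Pgk1, a glycolytic enzyme used by nearly all cells, was 974, 347 and 161 CPM beside at most 0.447 CPM, a difference of 8.27. Hprt, a purine salvage enzyme also taken as a housekeeping gene, was 124, 126 and 948 CPM beside 0, 0.0584, 0 and 3.84 CPM. Whether reads of either gene were divided among similar copies elsewhere in the genome was not tested. Since such genes are used by nearly all cells, a value near 0 in the 4 cells is given only as listed, and 122 of the 259 genes were under 1 CPM in all 4.

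Groups of general cell machinery are read against the 6.58% called higher over all compared genes. Of 37 compared mitochondrial ribosomal proteins 8 (21.6%) were higher, such as Mrpl20 at 404, 184 and 51.0 CPM beside at most 0.259 CPM, and of 34 compared proteasome genes 4 (11.8%) were higher. All of these 8 but Mrpl51, and all of these 4 but Psmd8, were under 1 CPM in all 4 Mki67-low cells. They thus passed the filter through the Mki67-high cells alone. Of 69 respiratory chain genes 6 (8.70%) were higher and 1 lower, of 34 splicing genes 3 (8.82%) were higher, and of 81 cytosolic ribosomal protein genes 3 (3.70%) were higher, so these lists were near or below that share. In the order given, their median differences were 1.75, 1.96, 1.58, 2.51 and 0.93, beside 0.73 over all compared genes. These medians were not stable: the mitochondrial ribosomal one was 0.14 without cell 6, and the proteasome one was -0.18 with equal numbers of genes per cell. With no filter, over all 73 measured members, the mitochondrial ribosomal median was 0.92, beside 0.10 over all symbols. The respiratory chain median was 0.25 with cell 35 counted as Mki67-high and 3.17 with equal numbers of genes, the splicing one 1.11 with equal numbers of genes, and the ribosomal protein one -0.12 with cell 35 counted as Mki67-high. Of 14 compared housekeeping genes 4 were higher, Pgk1, Hprt, Tubb5 and Ywhaz, with a median of 0.67, and that median was -0.05 without cell 6.

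Genes lower in the Mki67-high cells were fewer, and 5 of them reached 100 CPM in all 4 other cells. H2-K1, a heavy chain of class I histocompatibility molecules, was 272, 581 and 252 CPM in cells 6, 8 and 10 beside 2465, 2798, 2893 and 1161 CPM in cells 5, 7, 35 and 37, a difference of -2.68. Every Mki67-low cell was well above every Mki67-high cell. B2m, the light chain of the same molecule, overlapped, at 671, 1356 and 202 CPM beside 2083, 3417, 1607 and 867 CPM, and H2-D1, a second heavy chain, overlapped as well, at 565, 710 and 382 CPM beside 556, 399, 132 and 638 CPM. H2-K1 and H2-D1 are close in sequence and could share reads. B2m and H2-D1 were named as partners of H2-K1 once the values were known.

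Clu, the secreted chaperone clusterin, was 5.32, 53.5 and 57.8 CPM beside 170, 372, 141 and 7137 CPM. Jun, an immediate early transcription factor, was 424, 224 and 542 CPM beside 715, 2855, 7256 and 897 CPM. Both were seen above 1 CPM in every cell. Loxl1, which cross-links elastic fibres, was 49.9, 64.1 and 33.0 CPM beside 2109, 133, 126 and 625 CPM, and Ndufa6, a subunit of respiratory complex I, had a difference of -4.17. Gpr146, an orphan receptor named once its values were known, had the largest fall over all 46 genes, with 12.0, 0.498 and 0 CPM beside 462, 1207, 482 and 87.6 CPM. Among 22 compared immediate early genes, whose levels are known to rise during tissue dissociation, Jun was the 1 called, and the list median was -0.58. That median ran from -2.06 without cell 10 to 0.74 without cell 8. Fos shows the spread: cell 8 held 0.588 CPM and cell 10 held 5747, with the other 5 cells between 166 and 3073 CPM.

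The label of the cells held in part. Of 26 measured mesothelial genes, 14, 23 and 14 reached 100 CPM in cells 6, 8 and 10, beside 18, 20, 9 and 11 in cells 5, 7, 35 and 37. Of 26 measured fibroblast and stellate cell genes, 14, 16 and 16 did so beside 10, 12, 9 and 15, so matrix genes stood next to mesothelial ones in every cell. Wt1, a transcription factor of mesothelium, was at 388, 629 and 341 CPM beside 48.2, 453, 42.6 and 150 CPM. Upk3b, a uroplakin of mesothelial cells, was 21.9, 953 and 912 CPM beside 1169, 637, 529 and 0.0800 CPM. C3, a complement protein, ranged from 3758 to 51756 CPM over all 7 cells. Cell 35 held the fewest of these genes at 100 CPM. Cell 37 had Upk3b, Krt19 and Gpm6a at no more than 0.365 CPM, yet it held 150 CPM of Wt1 and 2937 CPM of Lrrn4.

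Of 26 mesothelial genes compared, 1 (3.85%, beside 6.58% of all genes compared) was higher, Ptgis, the prostacyclin synthase, at 482, 788 and 982 CPM beside 5.24, 272, 0.149 and 240 CPM. The median difference was 1.35, and it was -1.46 with cells 5 to 8 and 10 alone, -0.56 with equal numbers of genes per cell and -0.51 with cell 35 counted as Mki67-high. Keratins differed within the Mki67-high cells: Krt8 was 416 and 4721 CPM in cells 6 and 8 and 0.906 CPM in cell 10, and Krt18 was 794, 1937 and 2.45 CPM. Cell 10 thus lacked the keratin pair while holding Krt19 at 457 CPM, above cells 6 and 8 at 96.3 and 127 CPM.

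Of 21 compared fibroblast and stellate genes, 2 were higher and 1, Loxl1, was lower, with a median difference of 2.55. The 2 are 9.52% of those compared, and the median was 1.26 without cell 35 or with cells 5 to 8 and 10 alone, 1.03 with no filter and 0.32 with cell 35 counted as Mki67-high. Col3a1, the chain of type III collagen, was 4121, 7773 and 9116 CPM beside 95.9, 1033, 0.447 and 3555 CPM. Acta2, smooth muscle actin, was 547, 27.2 and 25.5 CPM beside 11.2, 0.0257, 1.12 and 0.000120 CPM. Col1a1, a chain of type I collagen, was 829, 4637 and 2996 CPM beside 6.14, 2.16, 0.447 and 2114 CPM, so cell 37 lay among the Mki67-high cells. Dcn, the matrix proteoglycan decorin, was 3367, 2361 and 4170 CPM beside 2230, 811, 2937 and 15486 CPM. The stellate cell genes Lrat, Reln and Ngfr did not pass 0.504 CPM in any of the 7.

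**Figure D4:**
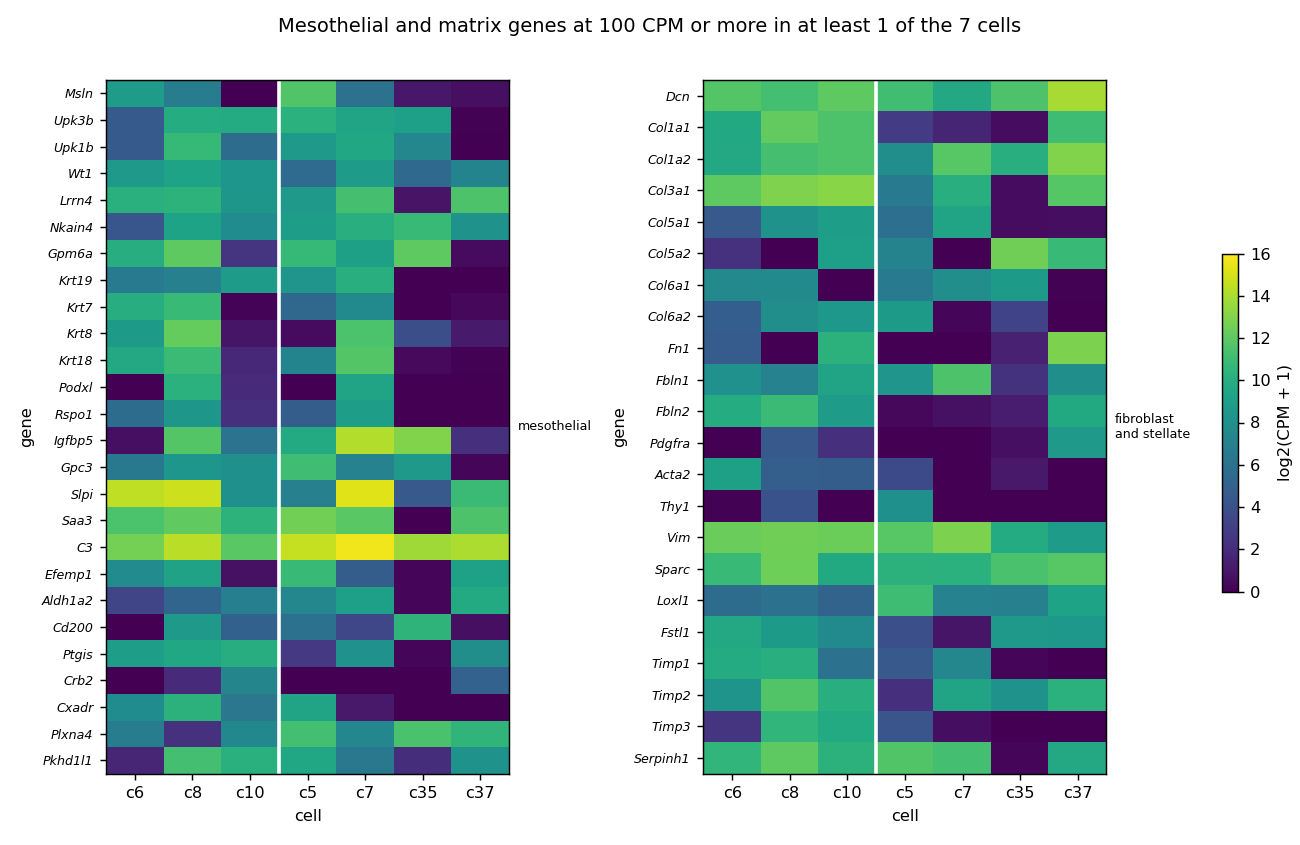
Heat map of log2(CPM + 1) for mesothelial genes (left) and fibroblast and stellate genes (right) that reached 100 CPM in at least 1 of the 7 cells, with a white line between the 3 Mki67-high cells and the other 4. Bright and dark cells alternate on both sides of the line. The called genes are Ptgis, Col3a1 and Acta2 (higher) and Loxl1 (lower).

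Most markers of other liver cells were low in both groups. Of 15 measured bile duct genes none reached 100 CPM in the Mki67-high cells and 1 or 2 did in each other cell. Their summed levels were 7.79 to 80.6 CPM and 147 to 7141 CPM. Clu was 372 of 616 CPM in cell 7, 141 of 147 CPM in cell 35 and 7137 of 7141 CPM in cell 37. In cell 5 it was 170 of 1078 CPM, so other bile duct genes held most of that sum. Epcam, which defines bile duct epithelium, was at most 0.298 CPM in all 7. Of 24 measured hepatocyte genes 0 to 2 reached 100 CPM in any cell. Their summed level was 19.1 to 828 CPM in the Mki67-high cells and 23.7 to 14772 CPM in the others, the highest value being almost wholly Trf, the iron carrier transferrin, in cell 37, while Alb did not pass 0.0801 CPM and Apoa1 was listed at 0 in all 7. Of 17 measured leukocyte genes 0 or 1 reached 100 CPM, and the 3 measured endothelial genes were under 1 CPM. The part of other cell types in the calls was not tested.

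Among the 32 cells outside the 7, Mki67 also reached 100 CPM in 3, at 220 CPM in cell 32, 933 CPM in cell 33 and 1270 CPM in cell 36. These were cells of another kind by their markers: 12, 8 and 10 of 17 leukocyte genes reached 100 CPM in cells 32, 33 and 36, beside 0 or 1 in the 7 mesothelial-like cells and a median of 0 in the remaining 29, and 0 or 1 of 26 mesothelial genes did. The part of cell type in the values that follow was not tested. Of the 120 division genes 41, 7 and 50 reached 100 CPM in these, beside 0 to 25 with a median of 4 in the remaining 29. Cell 33 thus had Mki67 with few other division genes, while cell 29, with Mki67 at 12.4 CPM and 12 of the leukocyte genes, had 25. Genes of any kind at 100 CPM numbered 1391, 1036 and 1474 in cells 32, 33 and 36, and 581 to 1196 in the 29. The genes called higher in the mesothelial-like cells were not used to choose these cells. Of the 259, 29.3%, 14.3% and 27.8% reached 100 CPM in cells 32, 33 and 36, beside 21.5%, 16.2% and 22.2% of all genes compared. In the 29 others the median was 11.2% of the called genes and 13.7% of the compared ones.

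The leading genes differed in whether they were seen in those leukocyte-marked cells. Top2a was 85.7, 1.63 and 509 CPM in cells 32, 33 and 36 and no more than 1.22 CPM in the other 29. 2810417H13Rik was 136, 4.83 and 1036 CPM and no more than 5.54 CPM in the other 29. Tubb6, Yif1b, Smpd3 and Gins2 reached 100 CPM in none of the 3, but in 5, 4, 7 and 1 of the 29. In cells 32 and 36, but not in cell 33, Top2a and 2810417H13Rik thus lay far above all of the other 29. Tubb6, Yif1b, Smpd3 and Gins2 did not. Cell 30, among the 29, held Mki67 at 74.1 CPM with Top2a listed at 0.

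**Figure D5:**
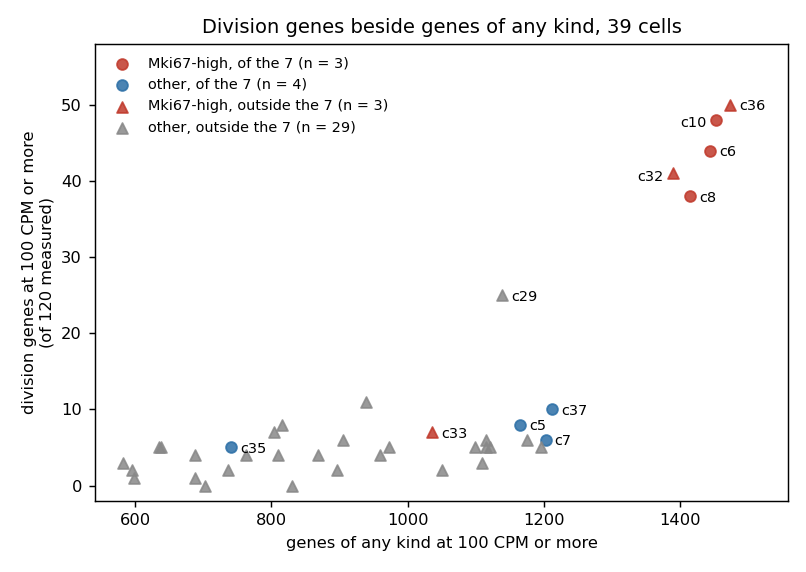
Number of the 120 division genes at 100 CPM or more against the number of genes of any kind at that level in all 39 cells, circles for the 7 mesothelial-like cells and triangles for the rest, red for Mki67 at 100 CPM or more. The 5 points at the upper right are cells 6, 8, 10, 32 and 36, with 38 to 50 division genes and 1391 to 1474 genes in all, while cell 33, also red, lies among the others with 7 and 1036.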

How the data were processed

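The transcriptomes of 39 GFP-positive cells from mouse liver had been deposited as log2 values for 13568 RefSeq transcripts under 10061 symbols. Bowtie 0.12.9, eXpress 1.5.1, edgeR and build mm9 are named in the submitters' processing notes, with neither order nor settings. The log scale and its base are read from the numbers themselves, since no source names them. CPM was computed as 2 to the power of the deposited log2 value minus 0.167, the linear form of the lowest value, -2.58, and the transcripts of a symbol were summed. The sums per cell ran from 351255 to 3128332 CPM and were not rescaled. Reads per CPM were estimated from the spacing of low values, and reads carry no molecular identifiers.

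The 7 cells, the gene lists and the rules were chosen with earlier results of these data known. Differences are in mean log2(CPM + 1), with a pseudocount of 1. With 1 group and no animal named, p-values, standard errors and count models were not used. The fixed rule named the 15 genes with the largest difference in each direction among those called at 100 CPM in every cell of the higher group, called members of the lists, and defining markers; other names in the text were chosen as list members that show how cells differ, once the values were known. The calling rule was tested on simulated data. Some genes that meet these rules are not reported here. No cell was removed and no doublet caller was run. Promoters were matched by symbol for 7567 genes and by synonym for 383, with RefSeq coordinates on GRCm38.p6, which is not the build of the expression values. Alternatives covered the pseudocount, filter, scaling, call rule, Mki67 threshold and cells used. Python 3.11.15, pandas 2.3.3, numpy 2.4.6, scipy 1.17.1 and matplotlib 3.10.9 were used.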

Additional observations from a re-analysis of the deposited data

Results flagged for a closer look

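Among the 4 Mki67-low cells, 18 values were examined for a single cell far from the rest, and 3 were set apart by Dixon's gap ratio, where chance gives about 1 in 20. Cell 35 held 1350 genes at 10 CPM or more, beside 1979 to 2073 in cells 5, 7 and 37. It also held 741 genes at 100 CPM or more, beside 1166 to 1213. Atp5f1, the ATP synthase subunit, was at 5.18 on the log2(CPM + 1) scale in cell 7, or 35.3 CPM, beside 0.0800 to 0.656 CPM in cells 5, 35 and 37.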

How the results depend on the processing

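As reported, 259 genes were higher in the Mki67-high cells, 46 were lower, 18 division genes were higher, and the difference in genes detected per cell was 1024.5, which stayed above 0 under every alternative run. Lower genes numbered 30 with a pseudocount of 10. Quantile normalisation gave 164 higher and 219 lower, with a difference of 10.9 genes, since it sets the cells to 1 distribution. With 741 genes kept per cell there were 16 higher, 4 lower and 1 division gene. With 100 CPM asked of the whole higher group the counts were 54, 5 and 4. With Mki67 split at 1 CPM, which adds cell 35, they were 90 higher and 7 division genes, the difference in genes detected per cell was 574, and Tubb5 reversed to -0.61. With cells 5 to 8 and 10 alone, 448 were higher and 211 lower. At 100 CPM the difference in genes detected was 357. Leaving out each cell in turn gave 281 to 378 higher, 70 to 102 lower, 6 to 23 division genes and a difference of 868 to 1304 genes. Without cell 7 or 8 there were 70 or 71 lower genes, and without cell 6 there were 102. Beyond fewer cells or genes entering a comparison, the cause was not tested. Of 1105 alternative values of named genes 968 stayed within the spread between cells, 136 moved and 1 reversed; of 370 list medians 302 stayed and 68 moved. No paired analysis was possible because the cells carry no replicate numbers shared between groups. A level of 1 CPM in cell 35 rests on about 6.71 reads.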
